A study of Mus musculus with 4 samples.

Results

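Of the 45281 probes on the mouse expression array, 17 were detected on both Control lens arrays and on neither Celf1 cKO lens array. They were chosen by their detection p-values in the deposited normalized values, which had to be under 0.01 on both Control arrays and over 0.05 on both cKO arrays. Symbols beginning with Slc, Col, Cry, Hist, Kif, Rab, Nup or Mrp were to be left out, but 0 such probes met the thresholds. By the array maker's definition, a detection p-value is the share of the array's negative control beads that are as bright as the probe. The 17 probes make up 0.0375% of the array and stand for 17 of the 28865 gene names on it, of which 13 are named genes and 4 are clones or predicted genes. Because the choice rests on the same comparison as every intensity given for these probes, their intensities and differences are a description and received no test.

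The study compared lenses of mice with a lens conditional knockout of Celf1, which encodes the RNA-binding protein CELF1, with Control lenses at postnatal day 6, with 2 arrays per genotype and 1 lens per array. The cKO mice carried 1 floxed Celf1 allele, in which the fifth exon lies between loxP sites, 1 Celf1 allele with a lacZ knock-in, and the Pax6GFPCre transgene, which is active in the early lens and also in the pancreatic lineage. In Control mice the other allele of the lacZ knock-in was wild type, so that all 4 lenses had a disrupted Celf1 allele. A mixed C57BL/6 and FVB background was stated for the cKO mice, and not separately for the Control mice. The sex of the animals was not stated, and Cre was not stated for the Control mice. The arrays of each genotype are named A and B, and nothing beyond the single lens per array says whether littermates or days were shared.

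CELF1 binds GU-rich stretches of RNA and acts on splicing, on mRNA decay and on translation. The lens consists of an epithelial sheet and of fiber cells, which elongate, fill with crystallins and then lose their nuclei and organelles. Several of the genes named here are best known from other settings, namely Ank1 from the membrane skeleton of red blood cells, Gsc from the embryonic organizer, Pax4 from the endocrine pancreas, Clic5 from sensory hair cells and Iqsec3 from the synapse.

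The array probes are 50 bases long, and the first 30 bases are shown for the probes on which the results below turn. The probes of Ank1 and of the predicted gene LOC100046690 share a run of 48 bases, and capitals mark the shared bases within the stretch shown, 5′ to 3′.
Ank1: CGCTCCCGTTGCTAGTAGGAGCTGTTTTAG
LOC100046690: cgCGCTCCCGTTGCTAGTAGGAGCTGTTTT
These probes read nearly the same letters, so the 17 probes stand for 16 distinct targets. For Ciapin1 and Ppm1e, the probe detected only in Control and a second probe of the same gene are shown, since the second probe of Ciapin1 went the other way and that of Ppm1e went the same way. Here capitals mark TGT, the core of the GU-rich element.
Ciapin1, detected only in Control: cctTGTGTtacctcccctccaattacagca
Ciapin1, second probe: gggaagagggtggatgcgcctaaggaactc
Ppm1e, detected only in Control: gggggttccaccctggcgcagcagtcatgc
Ppm1e, second probe: gcagatacagcacTGTaatctctctaggtg
Over their full 50 bases, as written in the probe table and on that strand alone, 9 of the 17 probes (52.9%) held TGT. Of all probes on the array, 58.8% did, and of the 10663 probes detected under 0.01 on both Control arrays, 62.8% did. The probes had a median GC content of 54%, with a range of 46% to 58%, and the probes detected on both Control arrays had the same median.

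All 17 probes were dim. Their unnormalized intensities lay between 54.3 and 124.4 on the Control arrays and between 43.4 and 53.9 on the cKO arrays. The median intensity of all probes on an array was 43.1 to 49.1. Ranked by mean Control intensity among the probes detected on both Control arrays, the members stood between the percentiles 1.26 and 39.7, with a median of 9.86. Both Control intensities exceeded both cKO intensities in 17 of 17 before normalization, as they did for 3.83% of all probes. The values that chose the members largely fix this separation. Each probe was carried by 26 to 66 beads per array, and the standard error over them measures technical error within an array, not the spread between lenses. The lowest Control value lay more than 2 combined bead standard errors above the highest cKO value for 10 of the 17 probes, and by less than that for the other 7. The share over all probes was 0.333%, from which nothing is read, since the members were selected on these intensities.

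**Figure D1:**
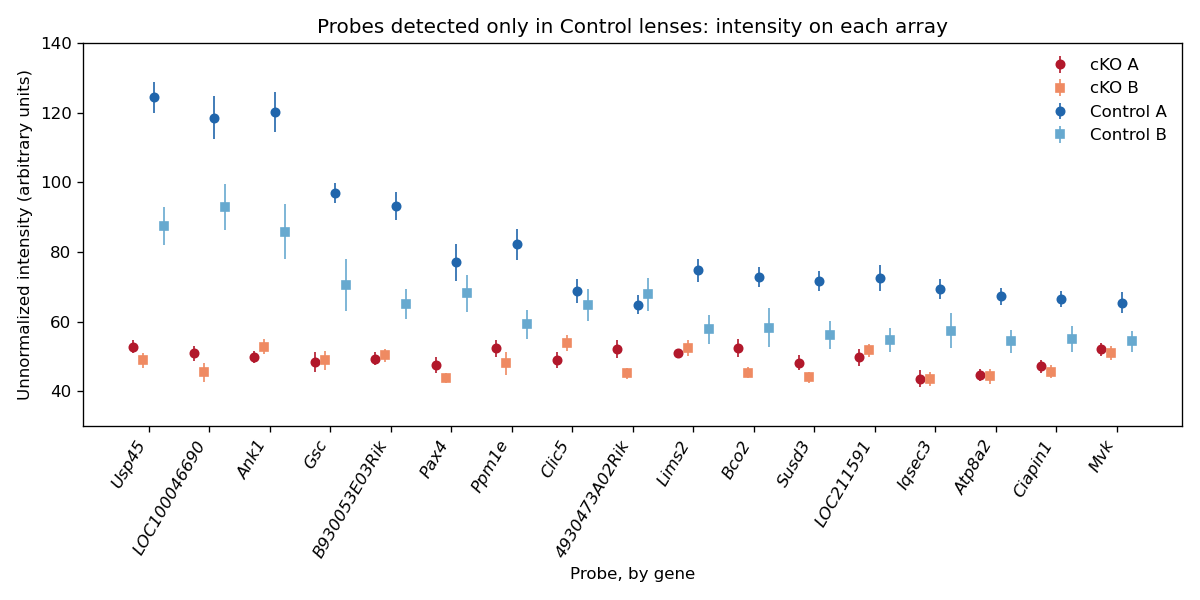
Unnormalized intensity (y axis, arbitrary units) of the 17 probes detected only in Control lenses (x axis, named by gene) on each of the 4 arrays, with bars of 1 standard error over beads. The cKO arrays lie between 43.4 and 53.9 throughout, while the Control arrays range from 54.3 for Atp8a2 to 124.4 for Usp45, and Control A is above Control B for 16 probes.

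A group of 3 probes stood above the rest and were the only ones with a detection p-value listed at 0 on both Control arrays. Usp45 encodes a ubiquitin-specific peptidase, an enzyme that removes ubiquitin from proteins. Its unnormalized intensity was 124.4 in Control A and 87.4 in Control B, and it was 52.8 in cKO A and 48.9 in cKO B. Because the probe was not detected on the cKO arrays, the change has only a bound. For each cKO array, the higher of the probe's own log2 signal and the lowest signal of any detected probe was used, which put Usp45 at least 4.30-fold higher in Control. This bound and those that follow hold for the quantile normalized log2 scale alone. The measured Usp45 difference, cKO minus Control, was -2.20 on that scale, -1.75 without normalization between arrays, -1.79 with equal array medians and -1.25 after normexp with an offset of 50.

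Ank1 encodes the erythrocyte ankyrin, which ties membrane proteins such as the anion exchanger Slc4a1 to the spectrin skeleton. Its probe read 120.1 and 85.8 in Control A and B, and 49.9 and 52.8 in cKO A and B. The signal was at least 4.13-fold higher in Control. The overlapping LOC100046690 probe read 118.6 and 92.9 in Control A and B, and 50.9 and 45.4 in cKO A and B, with a bound of 4.35-fold. Both probes were detected on the Control arrays and read higher in A than in B, as did the median of all probes (48.3 and 43.1). On the cKO arrays, where neither probe was detected, the order of A and B differed between them. A second Ank1 probe, at another place in the transcript, was detected on 0 arrays, with intensities of 49.3 and 42.4 in Control and 46.1 and 46.5 in cKO. The other 2 probes listed for LOC100046690 were likewise detected on 0 arrays.

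In the family of ankyrins, spectrins and associated skeleton proteins, 7 genes besides Ank1 were tested in the comparison across 11516 genes. That test called 5.66% of all genes reduced and 6.01% elevated in cKO lenses, and it called 0 of these 7. Their median log2 fold change, cKO minus Control, was -0.36, beside 0.01 over all genes tested. The lowest was Ank3, an ankyrin of axons and epithelia, at -0.78 ± 0.20 (SE; limma adjusted p = 0.0515). It was called without cKO A (-1.04) or with detection required on all 4 arrays (-0.78), and it was at -0.11 without normalization between arrays and -0.15 with equal array medians. Epb41, the red cell protein that joins spectrin to actin, was not called at -0.70 (SE 0.23), was called without Control A (-1.06), and was at 0.06 without normalization between arrays and 0.02 with equal array medians. Sptb, a spectrin of red cells, stood at -0.37 and was not called. The family did not move as 1, since Ank2 stood at 0.06 and Sptan1 at 0.07. Sptbn1 stood at -0.18 and Add1 at -0.36, and Epb42 was detected on 0 arrays.

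Since Ank1 is a red cell gene, the blood markers are given beside it. Slc4a1 fell by 1.05 on the log2 scale (SE 0.15, limma adjusted p = 0.0118), with log2 signals of 6.55 and 6.74 in Control and 5.67 and 5.51 in cKO. The call was lost without cKO B (-0.94) or Control B (-0.98), and without normalization between arrays (-0.37) or with equal array medians (-0.41), and without the detection filter (limma adjusted p = 0.0527). Slc4a1 was the 1 gene of 3 tested blood markers that was called, the others being the globins, and the erythroid enzyme Alas2 was detected on 0 arrays. Summed over the 14 blood marker probes, the normalized intensity was 3487 and 1553 in cKO A and B and 2629 and 2138 in Control A and B, so the genotypes overlapped. In whole lenses a smaller number of cells of a type and less RNA per cell cannot be told apart. The part of blood in the Ank1 signal was not tested.

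A pair of developmental transcription factors were members. Gsc, goosecoid, is a homeobox factor of the gastrula organizer and later of head structures. Its intensity was 96.9 in Control A and 70.5 in Control B, and 48.3 and 48.9 in cKO A and B, at least 3.01-fold higher in Control. Pax4 is a paired box factor needed for the beta cells of the pancreas. Its intensity was 77.0 in Control A and 68.1 in Control B, and 47.6 and 43.8 in cKO A and B, at least 2.40-fold higher in Control. Both genes had a single probe on the array, so neither pattern could be read a second time. Besides Pax4, 0 of the paired box genes on the array passed the filter on low signals, Pax6 included, a gene known to be active in the lens, whose 2 probes were detected on 0 arrays.

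Ppm1e encodes a phosphatase of the PP2C group that acts on PAK kinases. Its member probe was 82.2 in Control A and 59.2 in Control B, and 52.3 and 48.0 in cKO A and B, and the gap between genotypes was 1.40 bead standard errors. A second Ppm1e probe, which the choice of members did not use, lies close to the member probe in the transcript and so reads nearly the same region. This second probe was brighter and was detected on all 4 arrays. It read 155.1 and 124.4 in Control A and B and 63.1 and 56.4 in cKO A and B, a difference of -2.46 on the log2 scale. The Control and cKO values of the second probe did not overlap, but in either direction the same held for 62.3% of all genes tested. The member probe has only a bound, at least 2.19-fold, so the sizes of the changes on these probes cannot be ranked. The remaining Ppm1e probe was detected on 0 arrays. Of the 10 other PP2C phosphatases tested, 0 were called, and their log2 fold changes ran from -0.11 to 0.40.

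Lims2 encodes the adaptor PINCH2, which joins integrin-linked kinase at sites where cells hold on to matrix. The member probe read 74.7 and 57.8 in Control A and B and 50.9 and 52.4 in cKO A and B, a gap of 1.13 bead standard errors. A second probe was detected on all 4 arrays, at 82.9 and 68.8 in Control A and B and 61.0 and 57.4 in cKO A and B. Its log2 difference was -1.16, and the member probe, not detected in cKO, was at least 1.97-fold higher in Control. The remaining probe was detected on Control A alone and read 60.1 there, 48.1 in Control B and 51.5 on each cKO array. Of the partners of PINCH2, Ilk stood at -0.01 and Parva at -0.22, and neither was called.

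Ciapin1, which passes electrons to the assembly of cytosolic iron-sulfur clusters, went opposite ways on its probes. The member probe was at 66.4 and 55.0 in Control A and B and at 47.2 and 45.6 in cKO A and B, at least 1.65-fold higher in Control. The second probe was far above background on all arrays, at 199.4 and 182.9 in Control A and B and 582.6 and 630.7 in cKO A and B. Its log2 difference was 0.97, higher in cKO. The gene, averaged over both probes in the test, was not called. Of 5 other genes of the assembly pathway tested, 0 were called, with a median log2 fold change of 0.17.

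**Figure D2:**
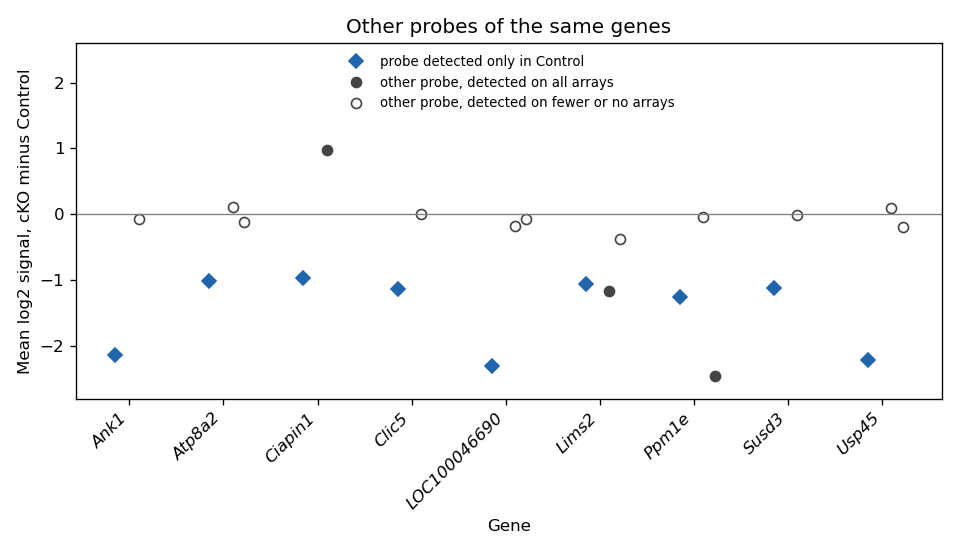
Mean log2 signal in cKO minus Control (y axis) for the 9 genes with more than 1 probe (x axis). Diamonds are the probes detected only in Control and circles the other 14 probes of these genes, filled for the 3 detected on all 4 arrays, of which those of Lims2 and Ppm1e lie below 0 and that of Ciapin1 above 0.

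Across the 9 genes with further probes, 14 other probes were present. Detection was lacking on every array for 7 of them, and 3 were detected on all 4 arrays, namely those of Ciapin1, Lims2 and Ppm1e. For these 3 genes the name of the group holds for a probe and not for the gene. The same goes for Usp45 and Atp8a2, each with another probe detected on cKO A. The other Usp45 probes were detected on 1 Control array and on 1 cKO array respectively, with unnormalized intensities of 46.2 to 56.3, and their log2 differences were -0.20 and 0.09. One other Atp8a2 probe was detected on 1 cKO and 1 Control array, with a log2 difference of 0.11. In 12 of the 17 cases, then, no probe of the gene was detected on a cKO array, and 8 of the 17 had a single probe.

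The members tied to membranes and the cell cortex were dimmer than the first 3. Clic5, a chloride intracellular channel protein that is linked to actin in the stereocilia of hair cells, read 68.8 and 64.7 in Control A and B. In cKO A and B it read 48.9 and 53.9, and the bound was 2.06-fold. It lay just inside the thresholds, with a detection p-value of 0.0513 in cKO B. The 3 other CLIC genes tested had log2 fold changes of 0.21 to 0.26 and 0 were called.

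Atp8a2 encodes a flippase that moves phosphatidylserine to the inner leaflet of the membrane and is known from neurons and photoreceptors. Its member probe read 67.3 and 54.3 in Control A and B and 44.6 and 44.3 in cKO A and B, at least 1.65-fold higher in Control. Of 7 other genes of the flippase family tested, Atp8a1 rose by 0.74 on the log2 scale (SE 0.15, limma adjusted p = 0.0298) and Atp10d fell by 0.78 (SE 0.15, limma adjusted p = 0.0262). Without cKO A, cKO B or Control B neither was called, with values of 1.03, 0.69 and 0.65 for Atp8a1 and -0.80, -0.68 and -0.70 for Atp10d. Without normalization between arrays Atp8a1 stood at 1.24 and Atp10d at -0.24, and with equal array medians at 1.21 and -0.28, and Atp10d was called in neither. Neither gene was called after normexp with an offset of 50 (0.48 and -0.43) or without the detection filter (0.50 and -0.78). The remaining flippase genes were not called. The 6 retina markers on the array gave 1 tested gene, which was not called, and their probes summed to 64.9 and 50.8 in Control A and B and 67.4 and 55 in cKO A and B on the normalized scale.

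Iqsec3 activates Arf GTPases at inhibitory synapses. Its probe read 69.3 and 57.4 in Control A and B and 43.6 and 43.4 in cKO A and B, a gap of 2.47 bead standard errors, and the bound was 1.82-fold. Of the 11 probes for neuron markers, 0 were detected on any array at a p-value under 0.05. Susd3, a membrane protein with a sushi domain, read 71.7 and 56.2 in Control A and B and 48.2 and 44.0 in cKO A and B, with a bound of 1.84-fold. A second Susd3 probe was detected on 0 arrays.

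A pair of metabolic enzymes completed the named genes. Bco2, listed under its older symbol Bcdo2, cleaves carotenoids in mitochondria. It read 72.7 and 58.3 in Control A and B and 52.5 and 45.3 in cKO A and B, at least 1.94-fold higher in Control, but with a gap of 0.96 bead standard errors. Mvk, mevalonate kinase, catalyses an early step toward cholesterol and isoprenoids. It had the smallest bound of the 17, 1.60-fold, with 65.4 and 54.4 in Control A and B and 52.0 and 51.0 in cKO A and B. The gap was 0.676 bead standard errors, the smallest of the 17. Of 5 other genes of the mevalonate pathway tested, 0 were called, and their median log2 fold change was -0.22. The isomerase Idi1 among them (-0.55) was called without Control A (-0.72), and it was at -0.24 without normalization between arrays and -0.28 with equal array medians.

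The clone and predicted genes besides LOC100046690 were B930053E03Rik, 4930473A02Rik and LOC211591. B930053E03Rik read 93.1 and 65.0 in Control A and B and 49.4 and 50.3 in cKO A and B, at least 2.70-fold higher in Control. For 4930473A02Rik the values were 64.9 and 67.8 in Control A and B and 52.1 and 45.2 in cKO A and B. It was the 1 case in which Control B exceeded Control A before normalization. On the deposited normalized scale Control A was above Control B for 14 of the 17 probes. LOC211591 read 72.5 and 54.7 in Control A and B and 49.7 and 51.8 in cKO A and B, and its gap was 0.745 bead standard errors. A curated mRNA accession stood behind 10 of the 17 probes (58.8%), against 84.5% of the probes detected on both Control arrays and 67.8% of all probes.

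Over the 17 probes the bound had a median of 2.02-fold. The difference between the measured log2 signals, cKO minus Control, ran from -2.30 to -0.76 with a median of -1.18. As the cKO signals were not above background, these differences describe the readings and are not sizes of change. The SD between the 2 Control arrays had a median of 0.19 on that scale and reached 0.44, for 4930473A02Rik. Nearest inside the thresholds were Clic5, 4930473A02Rik and Mvk, the last with a detection p-value of 0.00962 in Control A and of 0.00855 in Control B. Nearest outside were Cep128, Nat8 and Lcp2, each with a detection p-value of 0.0107 in Control A. In all, 125 probes missed the thresholds on a single array. The 3 nearest outside were close in intensity to the dimmest members: the normalized values in Control A were 29.5 for Cep128, 28.9 for Nat8 and 28.7 for Lcp2, and 32.6 for Mvk.

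With the genotypes exchanged, the same thresholds found 390 probes detected on both cKO arrays and on neither Control array, 0.861% of the array. The same symbols were left out here, and with none left out the number was 404. Seen against the probes detected under 0.01, the members were 0.159% of the 10663 on both Control arrays, and the reverse set was 3.01% of the 12971 on both cKO arrays. The arrays of the genotypes differed in how much they detected. At a p-value under 0.05, 16261 and 16925 probes were detected on cKO A and B, and 14542 and 14180 on Control A and B. The number of probes in either set moved with the thresholds, and the set found in cKO alone was the larger under each choice plotted.

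**Figure D3:**
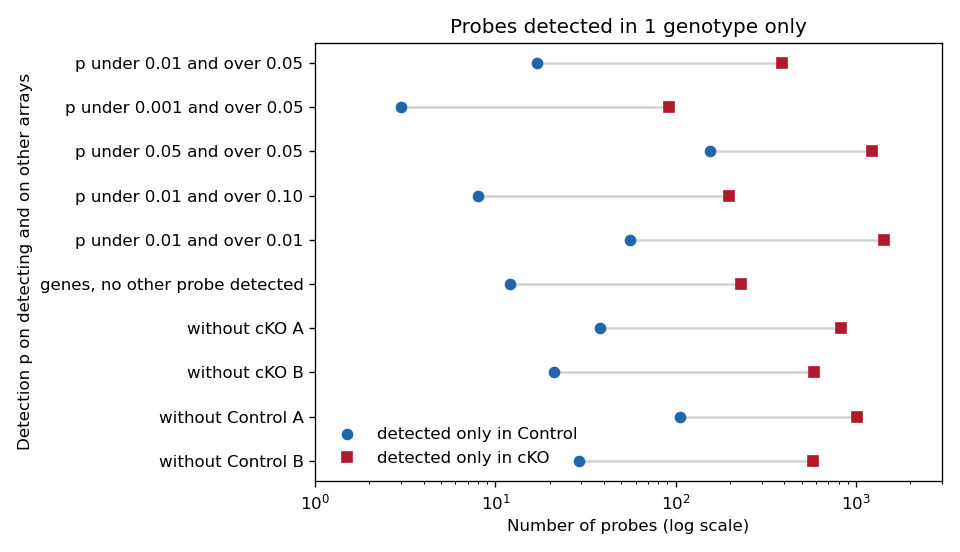
Number of probes (x axis, log scale) detected in 1 genotype only under each choice of thresholds or with an array left out (y axis), with circles for Control and squares for cKO. The labels give the p-value required on the detecting arrays and then on the others. As reported, the pair of counts was 17 and 390. Under other thresholds it was, among others, 3 and 92, 154 and 1233, and 56 and 1422. In 1 row, limited to genes with no other probe detected on the opposite arrays, it was 12 and 229.

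Facts of the whole series that touch these genes are as follows. In cKO lenses Celf1 itself fell by 1.44 on the log2 scale (SE 0.20, limma adjusted p = 0.0107), and 4 of its 5 probes were detected on each array. The call was lost without Control B (-1.53) or without the detection filter (-1.17), and the value was -0.60 without normalization between arrays and -0.64 with equal array medians. All 6 lens fiber markers were detected on all arrays, and 1 of them was called reduced, as was 1 of the 3 lens epithelium markers tested. In a further list of fiber genes, put together by hand from genes the study discusses and so no independent evidence of a direction, 9 of 9 tested were called reduced, with a median of -0.97, while Lgsn, kept among the fiber markers, was not called (-0.85). Xist, which the inactive X chromosome transcribes, was higher in cKO by 3.08 (SE 0.14, limma adjusted p = 0.000945), and the Y-linked Ddx3y fell by 3.12 (SE 0.57, limma adjusted p = 0.021). The Ddx3y call was lost without Control A (-3.07), without Control B (-3.28) or without the detection filter (-1.08), and its log2 signal was 6.86 in cKO A and 4.83 in cKO B. Of the 8 Y-linked genes on the array, 2 passed the filter, and the other, Uty, stood at 0.29 and was not called, with 1 of its 4 probes detected on each cKO array and on 0 Control arrays. Eif2s3y was detected in cKO A alone and Kdm5d in Control A alone. The Uty log2 signals were 4.67 and 4.89 in cKO A and B and 4.47 and 4.52 in Control A and B. They lay near the lowest signals of detected probes, 4.56 to 4.76 over the arrays. Of the 2 Y-linked genes tested, Ddx3y alone read well above background on both Control arrays. Xist moved the other way, with 4 of its 4 probes detected on each cKO array and 0 on either Control array. The sex of the animals was not settled, and sex and genotype cannot be told apart in these 4 lenses. Of the 17 probes, 14 could be placed on a chromosome through RefSeq, and 0 of those lay on X or Y, a count too small to read against the 2.78% of probes detected on both Control arrays that lay on X. Of the 5 macrophage markers, 3 were tested. Cd68 (0.69) and C1qb (0.74) were called elevated and Csf1r (-0.11) was not called, while C1qa was detected in cKO B alone and Ptprc on 0 arrays. Neither call held without Control B or after normexp with an offset of 50 (0.30 and 0.31), the Cd68 call was also lost without Control A, on the deposited scale and without the detection filter, and both genes missed the filter without either cKO array. Without Control B the values were 0.87 and 0.79, and Cd68 was at 0.63 without Control A. Of the 19 other marker and pathway lists, 0 held a member, whereas the gene families described above were chosen to hold them.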

How the data were processed

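Total RNA of single lenses was hybridised by the authors to Illumina MouseWG-6 v2.0 BeadChips, 4 arrays in all. The deposited tables hold, per probe and array, an intensity before and after the authors' normalization, a standard error over beads, a bead count and a detection p-value. The deposited normalized intensity equals the background-subtracted one times a factor of 0.889 to 0.913 for cKO and 1.46 to 1.93 for Control. The deposited detection p-values chose the members. Of 45281 probes, 18 have shifted fields in the unnormalized table, leaving 45263 for the test. Per gene, signals were corrected and quantile normalized with neqc (offset 16), taken to log2, and averaged over probes detected at 0.05 on at least 2 arrays. They were fitted with limma 3.58.1 in R 4.3.3 (lmFit, eBayes, two-sided, Benjamini-Hochberg over 11516 genes). A call required a mean log2 signal above 4.6, a log2 fold change beyond 0.58 in either direction and an adjusted p below 0.05. With 2 arrays per genotype the number of arrays limits the precision, and p-values measure the spread between these lenses only. On data simulated for this comparison over 11516 genes, 34.3% of the genes changed by 1 on the log2 scale were called, and 65.5% of those changed by 2.5. Each of 5 simulations changed 200 genes, fewer than the 1344 called in the data. As the adjusted p depends on the share of genes changed, these shares need not carry over to the real comparison.

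The members and all lists were chosen with earlier results of these data known, and 10 gene families after the members were known. One family leaves out a gene that is not reported here. All members are named, with the 3 probes nearest to each side of the thresholds. Gene names were updated through RefSeq (GRCm38.p6). Probe positions, of a build not given in the sources used here, are not printed. The arrays of a letter did not pair (correlation of the A minus B differences between genotypes -0.01). Python 3.11.15 was used for counts. Alternatives were other detection thresholds, scalings, filters and each array left out.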

Additional observations from a re-analysis of the deposited data

How the results depend on the processing

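The number of probes detected only in Control lenses, 17 as reported, was 154 with a Control p-value under 0.05, 3 under 0.001, 8 with a cKO p-value over 0.10 and 56 over 0.01. Chosen after seeing the data, a gap of over 2 bead standard errors left 10 and a p-value listed at 0 on both Control arrays left 3. Leaving out 1 array gave 21 to 105 probes (38 without cKO A, 105 without Control A, 29 without Control B), which hold the 17 by construction, since each drops a condition of the choice. The median log2 difference of the 17 was -1.35 on the deposited scale plus 16, -0.55 after normexp with an offset of 50, -0.82 without normalization between arrays and -0.86 with equal medians, and -1.33 to -1.06 with 1 array left out. All 136 values of single members over 8 alternatives were below 0, a direction that the choice of members largely fixes. The genes called, 1344 in all with 51.5% elevated, numbered 789 with the offset of 50, 155 without the detection filter, 5788 without normalization (97.7% elevated) and 5417 with equal medians (97.3%). The last 2 moved the median of all genes to 0.57 and 0.53. Leaving out 1 array gave 113 to 1315 calls (113 without Control B, 169 without cKO B, 512 without cKO A), where the lone array was assumed to vary like the other group. The letters share no stated pairing, and a replicate block gave 1757 calls, Ank3 and Epb41 among them. The causes were not tested. Signals this near background, on 2 arrays per genotype, limit what the members can show.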
